A study of Mus musculus with 15 samples.

Results

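The 10 genes described here carry interleukin-6 (IL-6) type signals in the liver. They are the cytokine gene Il6, the receptor genes Il6ra, Il6st, Osmr and Lifr, the kinase genes Jak1 and Jak2, the transcription factor genes Stat3 and Cebpb, and the feedback inhibitor gene Socs3. They were chosen by name, with earlier results of these data known. They are 10 of the 37991 genes in the count table, and 9 of them, all but Il6, were among the 14258 genes with enough reads to be tested. RNA of whole, flash-frozen livers from female C57BL/6 mice on a chow diet was sequenced in 3 groups of 5 mice, with a library per mouse. Young S6K1 wild-type mice (young WT) were 90 days old, old wild-type mice (old WT) were 600 days old, and old S6K1 knockout mice (old KO) were 600 days old and lacked S6 kinase 1, encoded by Rps6kb1, in every cell of the body. A young knockout group was not analysed here, so the comparison of old KO with young WT joins age and genotype, and the 3 comparisons share libraries with each other.

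IL-6 binds its receptor chain, encoded by Il6ra, and the pair then recruits the signalling chain gp130, encoded by Il6st. Oncostatin M and leukaemia inhibitory factor use gp130 together with the chains encoded by Osmr and Lifr. The kinases JAK1 and JAK2 bound to these chains phosphorylate STAT3, which enters the nucleus and switches on target genes, among them Socs3, whose product blocks the receptor complex again. In hepatocytes STAT3 and the factor C/EBP beta, encoded by Cebpb, are best known for driving the acute phase response, the release of plasma proteins such as serum amyloid A and fibrinogen during inflammation.

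The libraries held between 21801754 and 38065359 counted reads. Levels are given as CPM, a gene's reads relative to its library's total read count, with libraries scaled to each other by the TMM method of edgeR, and levels of different genes are compared only after division by exon length (RPKM). The targeted gene was lower in every knockout library, with Rps6kb1 at 15.2 to 20.8 CPM in old KO and 34.6 to 45.4 CPM in old WT (log2 fold change -1.17, SE 0.0979, edgeR adjusted p = 8.54e-06). Hepatocyte markers (10 of 10 tested) summed to between 96624 and 159740 CPM in every library. Since these are bulk samples, fewer cells of a type and less RNA per cell cannot be told apart.

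**Figure D1:**
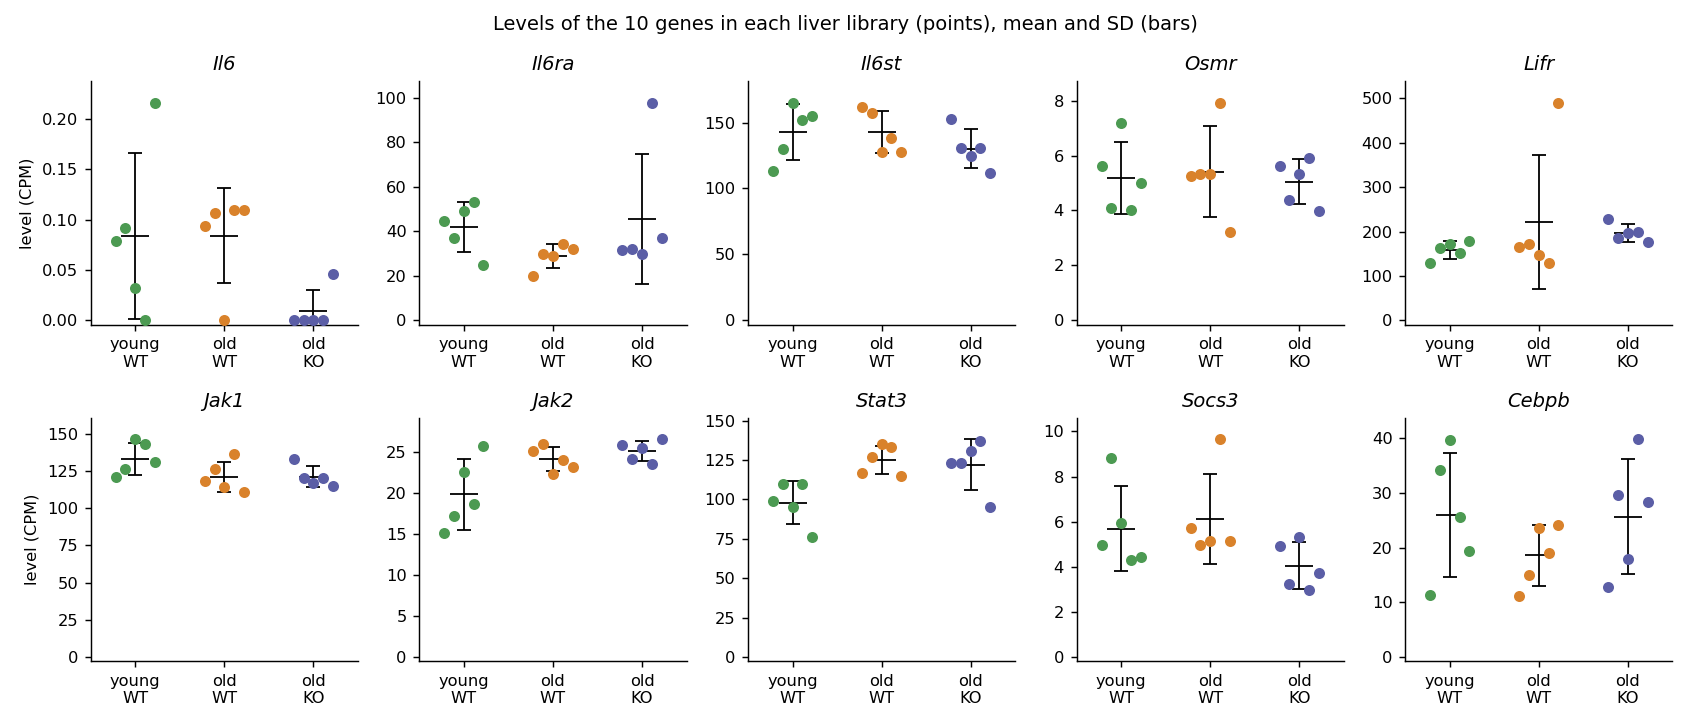
Level of each of the 10 genes in CPM (linear axis, its own scale per panel) in young WT, old WT and old KO liver, with a point per library and a bar and whiskers for the mean and SD of 5 libraries. Stat3 is the gene whose old WT points all lie above its young WT points, and Il6ra in old KO and Lifr in old WT each have 1 point far above the other 4.

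Among these genes Stat3 was called higher in old than in young wild-type liver and was the only member called in that comparison. This call was lost without any of 6 of the 15 libraries and in 1 of 8 alternative settings. No member was called between old KO and old WT. Jak2 and Stat3 were called higher in old KO liver than in young WT liver, by 0.34 and 0.31 on the log2 scale. Each of these 2 calls was lost without any of 11 of the 15 libraries. A call means an edgeR adjusted p under 0.05 over all 14258 tested genes. In the age comparison 1 of 9 members was called higher and 0 lower, beside 9.92% of all tested genes called higher and 8.91% called lower. In the genotype comparison 0 of 9 were called, 2 had an unadjusted p under 0.05 (Il6ra and Socs3), and DESeq2 and limma also called 0. The background there was 0.112% higher and 0.421% lower, with 11.6% of tested genes at an unadjusted p under 0.05. Between old KO and young WT 2 of 9 were called higher and 0 lower, beside 12.0% and 11.3% of tested genes. Libraries of the compared groups did not overlap for 1 member with age, 0 with genotype and 0 between old KO and young WT. The matching shares of all tested genes were 11.4%, 3.20% and 13.9%. The median log2 fold change of the 9 tested members was 0.06, -0.04 and -0.02 in the 3 comparisons, and that of all tested genes was 0.01, 0.00 and -0.01. Beside these background shares, the counts are no result about the 9 members as a set.

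**Figure D2:**
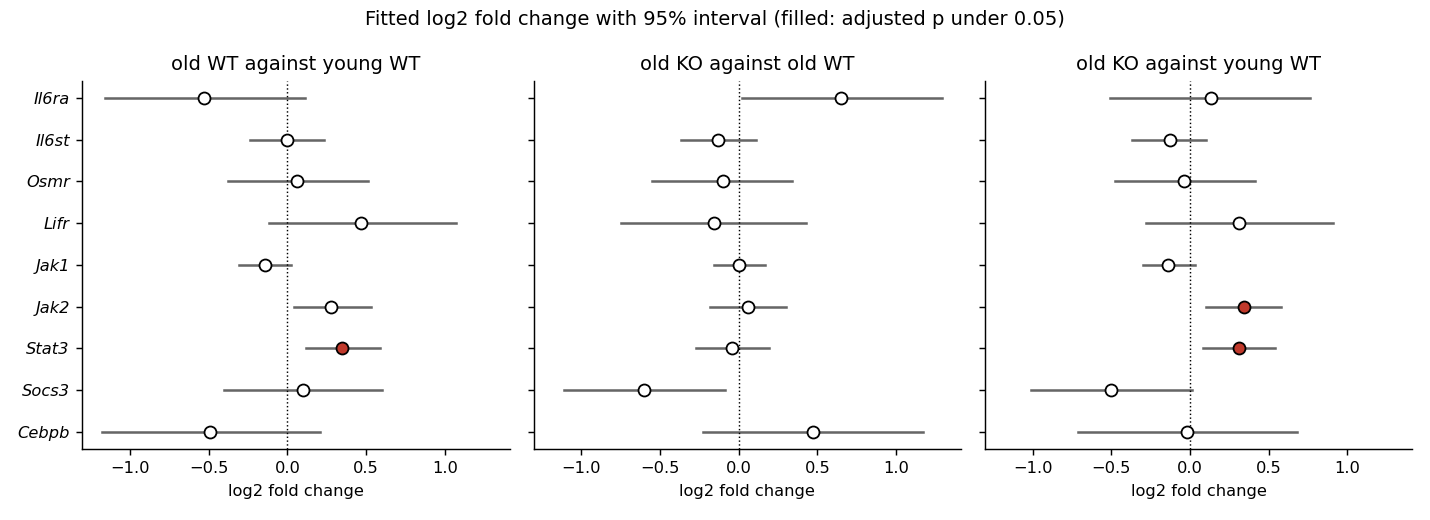
Log2 fold change of the 9 tested genes from the edgeR fit, with 95% intervals, in the 3 comparisons; filled points have an adjusted p under 0.05. Stat3 is filled in the age comparison at 0.35, none is filled in the genotype comparison, and Jak2 (0.34) and Stat3 (0.31) are filled in old KO against young WT.

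Per length, the gp130 gene Il6st stood highest of the 10 in every group, with means of 27.5 ± 4.07 RPKM for young WT, 27.4 ± 3.07 for old WT and 25 ± 2.84 for old KO (SD, n = 5). In young WT its libraries did not overlap those of Jak1, next in order at 18.5 ± 1.5 RPKM. Cebpb, Lifr, Il6ra and Stat3 followed at 17.3, 15.4, 12.5 and 10.3 RPKM, and each of these overlapped its neighbour in the order. Jak2 came after them at 3.94 ± 0.851 RPKM, below the lowest Stat3 library of 7.99 RPKM. Socs3 (1.97 RPKM) and Osmr (1.07 RPKM) were near the foot of the order and overlapped in young WT and old KO but not in old WT. Il6 was last in every group, at 0.077 RPKM (young WT), 0.0774 RPKM (old WT) and 0.00854 RPKM (old KO). The receptor gene Il6ra stood far above the gene of its ligand, with means of 12.5 (young WT), 8.67 (old WT) and 13.7 RPKM (old KO). The old KO mean was raised by old KO 5, at 29.2 RPKM. Lifr stood second in old WT with 21.4 ± 14.6 RPKM, a mean that 1 library raised.

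**Figure D3:**
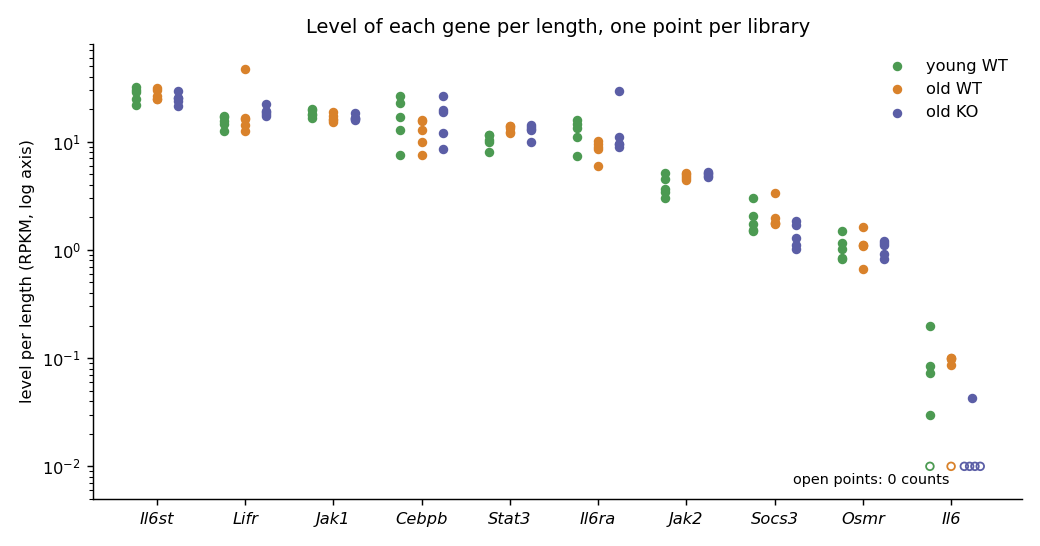
Level per exon length (RPKM, log axis) of the 10 genes, ordered by their mean, with a point per library coloured by group; open points stand for libraries with 0 counts. Il6st, Lifr, Jak1, Cebpb, Stat3 and Il6ra lie between 5.98 and 47.4 RPKM, Jak2, Socs3 and Osmr lower, and Il6 is at or below 0.198 RPKM in every library.

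Il6 (ENSMUSG00000025746, chromosome 5, 30339701 to 30346508, plus strand, build NCBIM37) encodes the ligand. It was counted 3, 3, 1, 0 and 5 times in young WT libraries 1, 2, 3, 4 and 6. In old WT libraries 1, 4, 5, 7 and 10 it was counted 3, 3, 0, 3 and 3 times, and in old KO libraries 1, 2, 4, 5 and 6 it was counted 0, 0, 0, 0 and 1 time. The groups overlapped, since each held a library at 0, and a count of 0 allows up to 3 counts, or 0.107 to 0.136 CPM in an old KO library. The 12 counts of old WT against 1 of old KO gave a rate ratio of 0.0957 (95% exact interval 0.00224 to 0.647, counting error only). On log2(CPM + 0.1) the difference between old KO and old WT was -0.72 (exact 2-sided permutation p = 0.0476, adjusted over the 3 comparisons 0.131). With 5 libraries against 5 the smallest p this test can give is 0.00794. The unadjusted p rose to between 0.0714 and 0.0873 without any of old WT 1, 4, 7 or 10 or old KO 1, 2, 4 or 5. Between old WT and young WT the difference was 0.06 (exact permutation p = 0.825), and between old KO and young WT it was -0.66 (exact permutation p = 0.0873). The last of these was -0.85 without young WT 4, the young library at 0 counts (unadjusted exact permutation p = 0.0238). That was the 1 of 10 leave-outs of this comparison with p under 0.05. Across the 10 the difference ran up to -0.44 (exact permutation p up to 0.135).

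Promoters of the 10 genes were read from RefSeq (build GRCm38.p6, 250 bases before to 50 after the transcription start) because STAT3 and C/EBP beta act on promoters of this group, and all 10 genes had an entry (11 entries, with 2 for Lifr). On either strand, the spaced palindrome TTCNNNGAA, a STAT pattern, was found in Socs3 alone and in 8.3% of 32851 promoters. The same pattern with 1 more free base in its middle was found in no member and in 6.95% of promoters. The C/EBP pattern TTGCNNAA was found in Il6 alone and in 10.8% of promoters. A match is a description of the letters, not a bound site. The Il6 window (chr5:30012864-30013163, plus strand) and the Socs3 window (chr11:117969317-117969616, minus strand) are shown because they carry these matches, in capitals, with the first matched base at -128 in Il6, where the pattern reads on the opposite strand, and at -154 in Socs3.
Il6: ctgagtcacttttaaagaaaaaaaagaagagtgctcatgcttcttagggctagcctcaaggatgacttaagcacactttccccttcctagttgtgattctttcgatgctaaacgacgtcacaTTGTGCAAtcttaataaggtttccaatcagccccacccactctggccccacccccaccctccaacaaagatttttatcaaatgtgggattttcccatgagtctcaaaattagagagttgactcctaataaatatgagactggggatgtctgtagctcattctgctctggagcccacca
Socs3: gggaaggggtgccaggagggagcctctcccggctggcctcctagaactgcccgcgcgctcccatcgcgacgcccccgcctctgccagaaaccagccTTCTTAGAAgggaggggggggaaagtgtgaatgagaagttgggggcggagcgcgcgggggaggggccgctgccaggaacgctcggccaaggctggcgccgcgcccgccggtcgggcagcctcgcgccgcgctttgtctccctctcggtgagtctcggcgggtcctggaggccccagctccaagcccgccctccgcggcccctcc

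Il6ra (ENSMUSG00000027947, chromosome 3, 89673246 to 89717084, minus strand) encodes the IL-6 binding chain. Its level was 44.6, 37, 49.1, 53.2 and 24.9 CPM in young WT 1, 2, 3, 4 and 6. It was 20, 29.8, 28.8, 34.2 and 32.2 CPM in old WT 1, 4, 5, 7 and 10, and 31.8, 32, 29.7, 97.8 and 36.9 CPM in old KO 1, 2, 4, 5 and 6. Old WT lay below the young WT median in every library, but the groups overlapped through young WT 6, and old KO 5 stood at 3.06 times its group's median. The age difference was -0.53 on the log2 scale (95% interval -1.16 to 0.11, edgeR adjusted p = 0.231). The genotype difference was 0.65 (0.02 to 1.29, unadjusted p = 0.0445, edgeR adjusted p = 0.415). Without old KO 5 the genotype difference was 0.16 (edgeR adjusted p = 0.87), so its size rested on that library. Between old KO and young WT it was 0.13 with that library (edgeR adjusted p = 0.79) and -0.36 without it (edgeR adjusted p = 0.201).

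Il6st (ENSMUSG00000021756, chromosome 13, 113265216 to 113297068, plus strand), the shared gp130 chain, varied little. Its libraries spanned 113 to 165 CPM (young WT), 128 to 162 CPM (old WT) and 112 to 153 CPM (old KO), and all 3 groups overlapped. The age difference was -0.00 (95% interval -0.24 to 0.23) and the genotype difference -0.13 (-0.37 to 0.11), with edgeR adjusted p of 0.995 and 0.714. The fold of old KO over old WT was therefore bounded between 0.775 and 1.08. Within a library, the log2 ratio of Il6ra to Il6st counts averaged -1.81 ± 0.50 for young WT, -2.32 ± 0.43 for old WT and -1.68 ± 0.74 for old KO (SD, n = 5). The difference of -0.51 with age and 0.64 with genotype did not pass (exact permutation p = 0.119 and 0.127, both 0.254 when adjusted over 6 tests). Without young WT 6 the age difference of this ratio was -0.71 (unadjusted exact permutation p = 0.0159), the 1 of 10 leave-outs with p under 0.05. Across the 10 it ran up to -0.33 (exact permutation p up to 0.254).

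Osmr (ENSMUSG00000022146, chromosome 15, 6763577 to 6824313, minus strand), the oncostatin M receptor chain, was low, at 4.01 to 7.17 CPM (young WT), 3.23 to 7.92 CPM (old WT) and 3.99 to 5.91 CPM (old KO). Old WT held both the lowest library, old WT 10, and the highest, old WT 7. Its log2 fold change was 0.06 with age (95% interval -0.38 to 0.51, edgeR adjusted p = 0.857) and -0.10 with genotype (-0.55 to 0.34, edgeR adjusted p = 0.913). Against young WT, old KO differed by -0.04 (-0.48 to 0.41, edgeR adjusted p = 0.917).

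Lifr (ENSMUSG00000054263, chromosome 15, 7079559 to 7147489, plus strand), 255 kb from Osmr, encodes the leukaemia inhibitory factor receptor. It stood at 129, 162, 173, 152 and 178 CPM in young WT 1, 2, 3, 4 and 6. In old WT it stood at 166, 171, 147, 130 and 490 CPM in libraries 1, 4, 5, 7 and 10, and in old KO at 229, 185, 197, 200 and 176 CPM in libraries 1, 2, 4, 5 and 6. Old WT 10 was 2.95 times its group's median, while all 5 old KO libraries were above the old WT median. The log2 fold change with age was 0.47 (95% interval -0.12 to 1.07, edgeR adjusted p = 0.252) and -0.05 without old WT 10 (edgeR adjusted p = 0.792). With genotype it was -0.16 (-0.75 to 0.43, edgeR adjusted p = 0.887) and 0.36 without that library (edgeR adjusted p = 0.215), so 1 library turned the direction. Beside young WT, 4 of 5 old KO libraries were above every young library, with a difference of 0.31 (edgeR adjusted p = 0.444). Without old WT 10 in the fit the same difference of 0.31 had an edgeR adjusted p of 0.043. That library is in neither of these 2 groups but enters the estimate of spread that all libraries share. It was the 1 of 15 leave-outs that gave this call (edgeR adjusted p up to 0.609). The ratio of Osmr to Lifr did not pass in any comparison (exact permutation p between 0.119 and 0.905). Between old KO and old WT its log2 difference was -0.09, and -0.60 without old WT 10 (unadjusted exact permutation p = 0.00794, the smallest it can give). That was the 1 of 10 leave-outs of this comparison with p under 0.05. Across the 10 the difference ran up to 0.2 (exact permutation p up to 0.992), so the value rested on leaving out that library.

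Jak1 (ENSMUSG00000028530, chromosome 4, 100824972 to 100937887, minus strand), a kinase bound to gp130, stayed at 121 to 146 CPM (young WT), 111 to 136 CPM (old WT) and 115 to 133 CPM (old KO). The groups overlapped, with 3 of 5 old WT and 4 of 5 old KO libraries below every young library. The difference was -0.14 with age (SE 0.0769, 95% interval -0.31 to 0.02, edgeR adjusted p = 0.209) and 0.00 with genotype (-0.16 to 0.17, edgeR adjusted p = 0.994). The genotype interval corresponds to a fold between 0.896 and 1.12. Jak1 overlaps Raver2 and the small RNA gene U6 on the opposite strand and the pseudogene Gm12785 on its own strand in the annotation.

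Jak2 (ENSMUSG00000024789, chromosome 19, 29326318 to 29387570, plus strand), the related kinase, stood at 15.1, 17.2, 22.5, 18.6 and 25.7 CPM in young WT 1, 2, 3, 4 and 6. It was at 25.1, 25.9, 22.3, 24 and 23.2 CPM in old WT 1, 4, 5, 7 and 10, and at 25.8, 24.1, 25.5, 23.5 and 26.5 CPM in old KO 1, 2, 4, 5 and 6. Every old library lay above the young median, the old groups were tight (SD 1.44 and 1.22 CPM against 4.28 in young WT), and young WT 6 lay among the old libraries. The age difference was 0.28 (SE 0.114, edgeR adjusted p = 0.094), and without young WT 6 it was 0.40 (edgeR adjusted p = 0.00987). Old KO against young WT gave 0.34 (SE 0.115, edgeR adjusted p = 0.0413), a call that was lost without any of 11 of the 15 libraries (adjusted p 0.0503 to 0.0999) and in 3 of 8 alternative settings. It was kept without young WT 3, young WT 6, old WT 7 or old WT 10. Between the old groups the difference was 0.06 (95% interval -0.18 to 0.30, edgeR adjusted p = 0.908).

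Stat3 (ENSMUSG00000004040, chromosome 11, 100746412 to 100800854, minus strand), the main transcription factor of the pathway, was at 98.8, 110, 94.9, 110 and 76.1 CPM in young WT 1, 2, 3, 4 and 6. It was at 117, 127, 135, 133 and 115 CPM in old WT 1, 4, 5, 7 and 10, and at 123, 123, 131, 137 and 94.9 CPM in old KO 1, 2, 4, 5 and 6. All 5 old WT libraries were above all 5 young libraries, as were 4 of 5 old KO libraries, with old KO 6 among the young ones. Stat3 rose with age by 0.35 on the log2 scale (SE 0.109, 95% interval 0.12 to 0.59, edgeR adjusted p = 0.0336), a fold of 1.28. The call was lost, at adjusted p between 0.051 and 0.0781, without any of young WT 1, 3 or 6 or old WT 4, 5 or 7. In old KO against young WT it rose by 0.31 (SE 0.109, edgeR adjusted p = 0.0491), and this call was lost without any of 11 of the 15 libraries (adjusted p 0.053 to 0.115) and in 4 of 8 alternative settings. The libraries whose removal kept it were young WT 2, young WT 4, old WT 7 and old KO 6. Between old KO and old WT the difference was -0.04 (95% interval -0.27 to 0.19, edgeR adjusted p = 0.932), a fold between 0.828 and 1.14. Stat3 shares 72 bases with Stat5a on the opposite strand, and whether reads were counted by strand is not given in the sources used here.

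Markers of several cell types also differed between the age groups in which Stat3 was called. Of all tested genes 9.92% were called higher and 8.91% lower with age. T cell markers (2 of 9 called higher, 9 of 9 tested) summed to 3.27 to 7.63 CPM in young WT and 4.2 to 13.6 CPM in old WT. B and plasma cell markers (3 of 7 called higher) summed to 3.27 to 6.39 CPM in young WT and 8.11 to 42 CPM in old WT. Hepatocyte markers (3 of 10 called lower) summed to 96624 to 148663 CPM in young WT and 102882 to 152278 CPM in old WT, with medians of 143905 and 108682 CPM. In that list young WT 6 (96624 CPM) stood below the other young libraries (140967 to 148663 CPM) and old WT 7 (152278 CPM) above the other old WT libraries (102882 to 115868 CPM). Endothelial markers had 2 of 9 and stellate cell markers 3 of 9 called lower, summing to 191 to 354 and 343 to 405 CPM in young WT against 144 to 257 and 218 to 379 CPM in old WT. Of the macrophage markers 1 of 11 (Lyz2) and of the bile duct markers 1 of 5 (Spp1) were called higher, and bile duct markers summed to 29.7 to 51 CPM in young WT against 38.7 to 106 CPM in old WT. No marker of these lists was at 0 in every library of a group. The part of these cells in the Stat3 difference was not tested.

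Socs3 (ENSMUSG00000053113, chromosome 11, 117827393 to 117831361, minus strand), the feedback inhibitor whose promoter window carries the STAT pattern shown above, was low. It was at 4.98, 8.82, 5.93, 4.28 and 4.44 CPM in young WT 1, 2, 3, 4 and 6, and at 5.72, 4.98, 5.13, 9.64 and 5.15 CPM in old WT 1, 4, 5, 7 and 10. In old KO 1, 2, 4, 5 and 6 it was at 4.94, 3.23, 5.31, 2.98 and 3.71 CPM. In old KO 4 of 5 libraries were below every old WT library, and old KO 4 overlapped them. The genotype difference was -0.60 (SE 0.241, 95% interval -1.11 to -0.09, unadjusted p = 0.024), which did not pass across all genes (edgeR adjusted p = 0.326), and without old WT 7 it was -0.38 (edgeR adjusted p = 0.532). The age difference was 0.10 (-0.40 to 0.60, edgeR adjusted p = 0.796), and old KO against young WT gave -0.50 (-1.01 to 0.01, edgeR adjusted p = 0.146). Macrophage markers differed between the same old groups. Of 11 markers 5 were called lower in old KO (Cd68, Clec4f, Vsig4, Cd5l and Cd14) and 0 higher, beside 0.421% and 0.112% of all tested genes. The summed level of the markers was 145 to 218 CPM (old KO), 238 to 588 CPM (old WT) and 186 to 417 CPM (young WT), with no marker at 0 in every library of a group. Their part in the Socs3 and Il6 values was not tested.

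Cebpb (ENSMUSG00000056501, chromosome 2, 167514415 to 167515918, plus strand), the partner factor of STAT3 at acute phase genes, had the highest coefficient of variation of the 9 tested members in young WT. It was at 11.3, 34.2, 39.7, 25.6 and 19.4 CPM in young WT 1, 2, 3, 4 and 6. It was at 11.2, 15, 23.6, 19.1 and 24.1 CPM in old WT 1, 4, 5, 7 and 10, and at 12.9, 29.7, 18, 39.8 and 28.3 CPM in old KO 1, 2, 4, 5 and 6. The groups overlapped widely, with coefficients of variation of 43.6%, 29.7% and 41%. The differences of -0.49 with age (SE 0.329, edgeR adjusted p = 0.319), 0.47 with genotype (SE 0.33, edgeR adjusted p = 0.63) and -0.02 in old KO against young WT (SE 0.327, edgeR adjusted p = 0.974) were within that spread. Cebpb overlaps Tmem189 on the opposite strand.

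Among the other genes of the pathway, most of the cytokine genes had too few reads to be tested. Of 10 other ligand genes 3 were tested (Ctf1, Clcf1 and Ebi3), and 7 had too few reads, with Il31 at 0 in all 15 libraries. No ligand was called with age or genotype, and Ctf1, encoding cardiotrophin 1, was called higher in old KO than in young WT (log2 fold change 0.43, edgeR adjusted p = 0.0314), a call lost without any of 6 of the 15 libraries (adjusted p up to 0.0772). Of 4 other receptor chains 3 were tested and 0 called in any comparison, and Il31ra had too few reads. The median log2 fold change of these receptors was 0.09 with age and 0.14 with genotype.

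Among 8 other JAK and STAT genes, all tested, 2 were called higher with age and 0 lower, beside 9.92% and 8.91% of all tested genes. Their median difference was 0.28, and that of all tested genes was 0.01. Tyk2, the remaining JAK kinase of gp130 complexes, ran from 16 to 19.7 CPM in young WT and 20.4 to 28.2 CPM in old WT. These ranges did not overlap, as for 11.4% of all tested genes. Tyk2 rose by 0.52 (SE 0.0961, edgeR adjusted p = 0.00255), and this call held in all 8 alternative settings and without any single library. Stat5a, which acts downstream of growth hormone, rose by 0.50 (SE 0.166, edgeR adjusted p = 0.046), from 15.6 to 20.1 CPM in young WT to 14.1 to 30.3 CPM in old WT, and lost its call without any of 12 of the 15 libraries (adjusted p up to 0.121). All 8 genes had a difference above 0 with age. None was called with genotype, where the median was -0.05. Beside 12.0% of all tested genes, Tyk2, Stat5a and Stat5b were called higher in old KO than in young WT (0.50, 0.49 and 0.32). Of these, Stat5a and Stat5b each lost the call without any of 7 of the 15 libraries.

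The SOCS, PIAS and phosphatase genes, listed as regulators of the pathway, showed little movement. Of 15 genes 14 were tested, and 7 lay above and 7 below 0 with age. Beside 9.92% of all tested genes, 1 was called higher, Ptpn6, encoding the phosphatase SHP-1 of blood cells (0.26, SE 0.0877, edgeR adjusted p = 0.0481). It ran from 19.5 to 27.2 CPM (young WT), 24.2 to 29 CPM (old WT) and 19.6 to 22.6 CPM (old KO). Its call was lost without any of 12 of the 15 libraries (adjusted p up to 0.12). None was called with genotype. There Ptpn6 did not overlap between the old groups, as for 3.20% of all tested genes, but had an edgeR adjusted p of 0.128 (0.0486 without young WT 6). Pias2, a SUMO ligase of the PIAS family, was called higher in old KO against young WT (0.22, edgeR adjusted p = 0.0471), a call lost without any of 12 of the 15 libraries and in 4 of 8 alternative settings. Of 5 other C/EBP genes, Cebpa and Cebpe were called higher with age, beside 9.92% of all tested genes. Cebpa, a main hepatocyte factor, rose by 0.33 (SE 0.109, edgeR adjusted p = 0.0453) and lost its call without any of 8 of the 15 libraries (adjusted p up to 0.112). Cebpe, a factor of granulocyte development, rose by 1.76 (SE 0.383, edgeR adjusted p = 0.00582) from 0.183 to 1.47 CPM in young WT to 1.65 to 3.56 CPM in old WT, and stayed at 2.27 to 3.4 CPM in old KO. The neutrophil markers beside it had 0 of 11 called with age and 4 of 11 tested, summed to 5.16 to 8.83 CPM (young WT), 5.46 to 19.6 CPM (old WT) and 3.81 to 14.1 CPM (old KO), and their part was not tested. Ly6g was at 0 in every young WT and every old KO library.

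Of 24 acute phase genes, the best-known hepatic targets of the pathway, all were tested, and 9 were called higher and 1 lower in old WT, beside 9.92% and 8.91% of all tested genes. The median difference was 0.36. The largest rises were in Saa2 (2.45, SE 0.652, edgeR adjusted p = 0.0172), Orm2 (1.96, SE 0.398, edgeR adjusted p = 0.00408), Saa1 (1.89, SE 0.611, edgeR adjusted p = 0.041) and Lcn2 (1.71, SE 0.557, edgeR adjusted p = 0.042). Saa1 and Saa2 encode serum amyloid A proteins, Orm2 an acid glycoprotein and Lcn2 the siderophore-binding lipocalin 2. Saa1 and Saa2, and Orm1 and Orm2, are near-identical copies between which short reads may be split, so their separate values are uncertain. Steap4, Saa3, Saa4, Itih4 and Fgg also rose, by 1.26, 1.52, 1.12, 0.91 and 0.32, and Serpina3n fell by 0.53 (edgeR adjusted p = 0.0498). The calls of Saa3, Fgg and Serpina3n were lost without any of 2, 7 and 11 of the 15 libraries, and these 6 genes were named after their values were seen. None of the 24 was called with genotype, where the median was -0.11 and Saa1 (-1.68, edgeR adjusted p = 0.264), Saa2 (-1.60, 0.317) and Orm2 (-1.13, 0.233) had the lowest differences. Without old WT 10 these were -0.67, -0.40 and -0.59. Between old KO and young WT 9 were called higher and 0 lower, beside 12.0% and 11.3% of all tested genes, and the median of the 24 was 0.34.

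**Figure D4:**
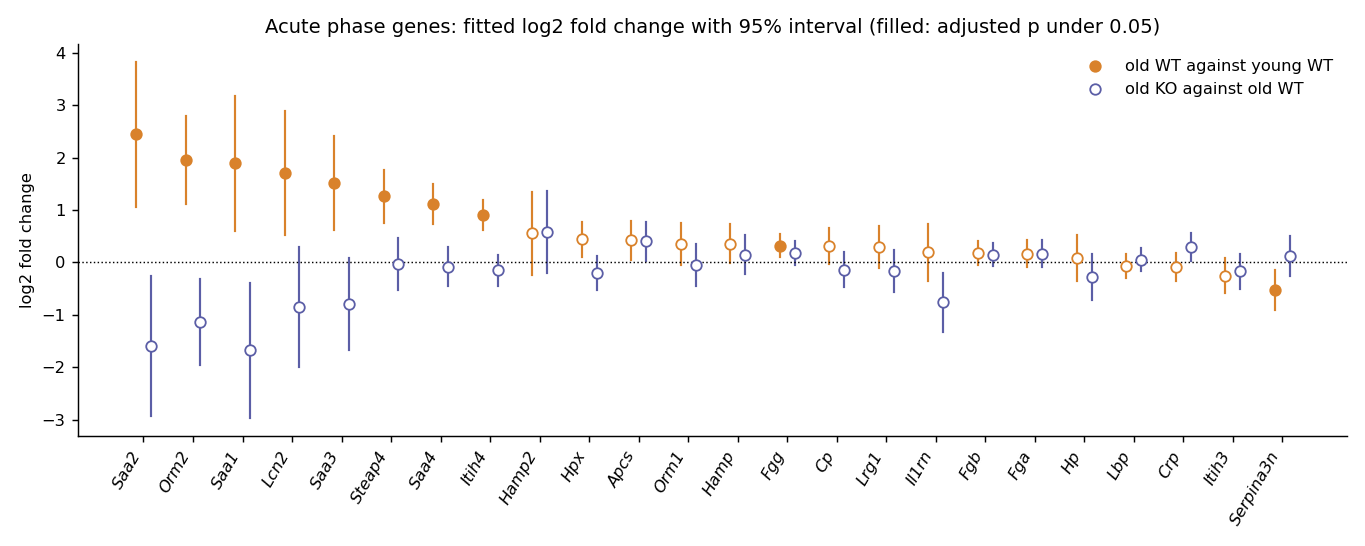
Log2 fold change of 24 acute phase genes with 95% intervals, ordered by the age comparison, for old WT against young WT (orange) and old KO against old WT (blue); filled points have an adjusted p under 0.05. The age points reach 2.45 at Saa2, 10 of them filled, and no genotype point is filled.

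The rises in Saa1, Saa2 and Lcn2 leaned on the library that was also high for Lifr. In old WT 10 Saa2 was at 137 CPM, against 9.42 to 30 CPM in the other old WT libraries, Saa1 at 212 CPM and Lcn2 at 141 CPM. Without old WT 10 the age differences were 1.25 for Saa2, 0.88 for Saa1 and 0.85 for Lcn2, none called (edgeR adjusted p = 0.0623, 0.197 and 0.184), and 5 of 24 acute phase genes were called in place of 10. Young libraries also moved that count, to 5 without young WT 2 and to 6 without young WT 1, and the Saa1 and Lcn2 calls were each lost without any of 5 and 8 of the 15 libraries. Orm2, at 62.7 CPM in old WT 10, kept its call without any single library (adjusted p up to 0.0123). Old WT 10 held the highest level of 10 of the 24 acute phase genes, whereas 5.04% of all tested genes had their highest level there. Among the members it held the highest Lifr and the lowest Osmr and Jak1 of the 15 libraries, while Stat3 (115 CPM) was the lowest of old WT and Socs3 (5.15 CPM) was at the median of old WT.

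**Figure D5:**
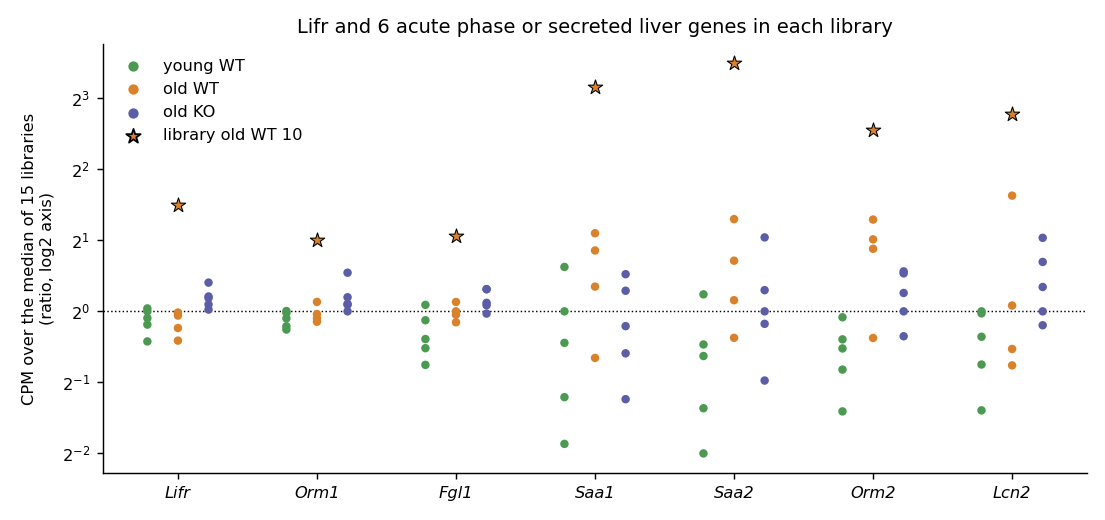
CPM of Lifr and of Orm1, Fgl1, Saa1, Saa2, Orm2 and Lcn2 in each library, divided by the median of the 15 libraries (log2 axis), with a point per library coloured by group and a star for old WT 10. The star is the highest point for all 7 genes, with Lifr at 490 CPM and Saa2 at 137 CPM.

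Of 12 early STAT3 target genes, all tested, Timp1 and Fos were called higher with age and 0 lower, beside 9.92% and 8.91% of all tested genes. Timp1, an inhibitor of matrix metalloproteinases, rose by 2.51 (SE 0.594, edgeR adjusted p = 0.00913) but was counted only 1 to 3 times per young library and 3 to 16 times per old WT library. Fos, an immediate early factor, rose by 0.83 (SE 0.272, edgeR adjusted p = 0.0429), and lost its call without any of 8 of the 15 libraries, falling to 0.54 without old WT 7 (edgeR adjusted p = 0.111), the library with the highest Socs3 and the highest summed neutrophil markers (19.6 CPM). Fos was also the gene of these lists called with genotype, beside 0.421% of all tested genes called lower. It fell by 1.47 (SE 0.286, edgeR adjusted p = 0.0337), from 2.39 to 6.23 CPM in old WT to 0.814 to 1.95 CPM in old KO. These ranges did not overlap, as for 3.20% of all tested genes. The genotype call of Fos was lost without any of old WT 1, 4 or 7 or old KO 2, 4, 5 or 6 (adjusted p up to 0.101). The macrophage markers described with Socs3 were lower in the same libraries, and their part in the Fos value was not tested. Between old KO and young WT, Timp1 (2.02) and Bcl3 (0.65) were called higher, beside 12.0% of all tested genes. Each of these 2 calls was lost without any of 6 of the 15 libraries (adjusted p up to 0.08 and 0.11).

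The patterns of the members over the 15 libraries were then compared with those of all tested genes of at least 1 CPM, by Pearson r of log2 CPM, as a description. The genes most like Stat3 were Rras (r = 0.911, rho = 0.957) and C2 (r = 0.908, rho = 0.914). Those most like Il6st were Dse (0.959) and Cd97 (0.912), Jak2 was most like Mettl8 (0.955), and those most like Jak1 were Fam46a (0.91) and AI118078 (0.881). Each r was also taken over the 13 libraries left without the 2 in which the member was farthest from its median. There r was 0.913 and 0.77 for Stat3, 0.956 and 0.874 for Il6st, 0.853 for Jak2, and 0.871 and 0.851 for Jak1. Cebpb ran with the clock gene Per1 (r = 0.847) and with its relative Cebpd (r = 0.841), and r was 0.781 and 0.846 over the 13 libraries left without the 2 in which Cebpb was farthest from its median. Per1 ran from 15.6 to 72.9 CPM in young WT, and among the young libraries Cebpb, Per1 and Cebpd were each lowest in young WT 1 and highest in young WT 3. Il6ra was most like Gm17565 (r = 0.89) and AA986860 (r = 0.846), and both values were similar without the 2 farthest libraries (0.885 and 0.824). Lifr was most like Orm1 (r = 0.834, rho = 0.45) and Fgl1 (r = 0.803, rho = 0.596), 2 secreted liver proteins, but these fell to 0.504 and 0.336 without old WT 10 and young WT 1, so they rested on those libraries. Socs3 was most like Tnfrsf18 (r = 0.856) and Ftsjd1 (0.839), and 0.657 and 0.678 were left without old WT 7 and young WT 2. Osmr was most like Icosl (0.836) and Atp8b2 (0.785), with 0.658 and 0.545 left without old WT 10 and old WT 7.

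Among the members themselves, with the group means removed, Il6st ran with Jak1 (r = 0.706) and with Jak2 (r = 0.662) over the 15 libraries. With the group means kept these values were 0.632 and 0.308. Jak2 and Stat3 had r = -0.61 with the means removed but 0.148 with them kept. Young WT 6 had the highest Jak2 and the lowest Stat3 and Il6ra of the young group, and it was also the shallowest library, at 21801754 counts. With the means removed, Stat3 and Socs3 had r = 0.253 and Stat3 and Cebpb 0.155, both weak. These values share libraries, depth and scaling.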

How the data were processed

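Gene counts of 15 mouse liver libraries were deposited as a table of raw counts per Ensembl gene. Per the study's methods and the submitters' processing notes, the authors made stranded mRNA libraries, demultiplexed single-end reads with CASAVA, mapped them to mm9 with TopHat2 (2.0.11) and produced these counts with HTSeq, and used DESeq2 (1.18.1); the annotation and strand setting of the counting are not given in the sources used here. Mapping with short reads can blur genes with near-identical copies.

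The members and gene lists were chosen with earlier results of these data known. All 15 libraries entered an edgeR (4.0.16, R 4.3.3) quasi-likelihood fit on the deposited counts with a term per group, TMM scaling and filterByExpr (14258 of 37991 genes kept), with Benjamini-Hochberg adjustment over all tested genes and a threshold of 0.05. The script was tested on simulated data. Il6 failed the filter and was tested on log2(CPM + 0.1) by an exact 2-sided permutation test, as were 2 ratios within libraries. Alternatives were RLE and upper quartile scaling, no filter or at least 10 counts in every library, DESeq2 (1.42.0), limma voom (3.58.1), the 10 libraries of a comparison alone, a replicate block and leaving out each library. RPKM and gene positions used GENCODE M1 (NCBIM37), which held 37205 of the identifiers. All 159 list entries matched, 3 by synonym. Named genes were all members, up to 4 called genes per list with the largest age or genotype difference, and the 2 genes most like each member (1 is not reported here); Ctf1, Stat5b, Pias2 and Bcl3 were named after their values were seen. Per the study, the libraries of a group come from individual mice. Intervals from counts cover counting error only.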

Additional observations from a re-analysis of the deposited data

Results flagged for a closer look

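In 6 of 36 groups of 5 libraries, taken over the levels of the 10 members and the log2 ratios of Il6ra to Il6st and of Osmr to Lifr, 1 library stood apart from the other 4 by the gap to its neighbour over the range (critical value 0.71). Chance flags about 1 in 20 groups of normally spread values. That rate does not hold for Il6, with tied counts of 0 to 5 per library, so 6 of 36 is not compared with it. Il6ra in old KO 5 was at 97.8 CPM against 29.7 to 36.9 in the other old KO libraries. Lifr in old WT 10 was at 490 CPM against 130 to 171. Socs3 in old WT 7 was at 9.64 CPM against 4.98 to 5.72. Jak1 in old KO 1 was at 133 CPM against 115 to 120. Il6 in old WT 5 was at 0 CPM against 0.0937 to 0.11, and in old KO 6 at 0.0464 CPM (1 count) against 0 in the other 4, steps of at most 3 counts. These are 6 different libraries, and the cause was not tested.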

How the results depend on the processing

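Of 621 values of the tested members under alternatives, 583 kept the call or its absence, 36 lost a call, 2 gained one and 0 reversed a call, and 25 uncalled values had the other sign. Members called with age numbered 1 and became 0 under the replicate block, and 0 to 1 without single libraries. Members called with genotype stayed at 0 throughout. Members called in old KO against young WT numbered 2 and became 0 with upper quartile scaling, with no filter on low counts and with the 10 libraries alone, and 1 where every library had to hold 10 counts; without single libraries they were 0 to 2. Genes of the pathway lists called with age numbered 17, and 11 with no filter, 10 with the 10 libraries alone and 5 with the replicate block (9 to 17 without single libraries). With genotype they numbered 1, and 2 with DESeq2 and 0 with limma voom, the 10 libraries alone or the replicate block (0 to 2 without single libraries). In old KO against young WT they numbered 18, and 11 with no filter (8 to 22 without single libraries).

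The replicate block used numbers shared by the titles, but these did not pair the libraries: the correlation of deviations of same-numbered libraries lay between -0.153 and 0.077. Some libraries, among them old WT 7 and old WT 10, shared their number with no other library. With a term per number, such a library no longer enters the comparisons. Old WT 7 and old WT 10 held the highest Lcn2 levels of old WT (63.4 and 141 CPM). Under the block Stat3 with age was 0.22 (edgeR adjusted p = 0.154). Lcn2 with age changed from 1.71 to -0.06 (edgeR adjusted p = 0.934). The age calls of Orm2 (0.98, edgeR adjusted p = 0.108), Saa2 (0.87, 0.308), Timp1 (1.12, 0.334) and Cebpe (1.99, 0.0667) were lost. With age 899 genes were called in place of 2685. The part of the left-out libraries in these changes was not tested. Without single libraries the log2 ratio of Il6ra to Il6st ran from -0.71 to -0.33 with age and that of Osmr to Lifr from -0.6 to 0.2 with genotype, and the difference in Il6 between old KO and old WT from -0.93 to -0.66. The depth limits Il6 and 7 other ligand genes, where a library holds at most a few counts.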
